A study of Apis mellifera with 6 samples.

Results

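The accessible sites described here lie on unplaced scaffolds of the honey bee (Apis mellifera) genome, pieces of assembled sequence that have not been assigned to any chromosome. Their members were chosen by sequence name alone: every peak on a sequence whose name starts with NW_ was taken from each of the 6 deposited peak lists, and peaks that overlapped by at least 1 bp were merged into 1 site. This gave 1075 sites on 131 scaffolds, of 60136 sites in all (1.79%). The other sites comprised 59043 on the 16 placed chromosomes and 18 on the mitochondrial sequence, and the placed sites served as the comparison throughout.

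The lists came from ATAC-seq, an assay that uses the Tn5 transposase to insert sequencing adapters into open chromatin, on the brains of queens (2 libraries), workers (2 libraries) and drones (2 libraries) collected as adults just after eclosion. Queens and workers are diploid females that differ in how the larva was reared, and drones are haploid males that develop from unfertilised eggs. According to the study's methods, all bees descended from a single mother queen, the optic lobes were dissected away, the hypopharyngeal glands were removed from workers, and several brains were pooled for each library. Replicate spread is therefore spread among pools of central brains, with no information on single bees or single cell types. No treatment was applied, and ploidy, sex and rearing differ together between drones and queens or workers.

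Sequence tends to stay unplaced where it is repeated, since an assembler cannot tell which copy a read belongs to. Among the best known repeats of this kind are the genes for ribosomal RNA, which lie in tandem arrays in most animals and are often represented in an assembly by only some of their copies. A peak on such a scaffold therefore records accessible DNA at a sequence, and it need not stand for a single place in the genome.

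In total the libraries held between 28026 and 39158 peaks, and the queen lists were the shortest. Each peak carries a fold enrichment, the pileup of fragments at its summit plus 1 over the local background plus 1, from which a whole pileup and the local background were solved for 100% of peaks in each library. The commonest background of a library was taken as its genome-wide background. It was 1.47 and 1.24 fragments in queen replicates 1 and 2, 1.06 and 1.04 in worker replicates 1 and 2, and 1.42 and 1.08 in drone replicates 1 and 2. Drone replicate 1 lay between the queen libraries in this value. By the study's mapping statistics, both drone libraries had more mapped reads than any queen or worker library. The background therefore did not follow mapped reads, and its part in the results below was not tested. The peak names of the 4 queen and worker lists carried 1 common ending and those of the 2 drone lists none. What this ending marks is not stated. If it marks a difference in handling, that difference cannot be told apart from one between drones and females.

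Queens had more peaks on unplaced scaffolds than either of the other phenotypes, although their lists were the shortest. The queen libraries had 793 and 705, the worker libraries 528 and 512 and the drone libraries 571 and 513. Both queen values lay above all 4 others, while the worker and drone ranges overlapped. The means were 749 ± 62.2 in queens, with 520 ± 11.3 in workers and 542 ± 41.0 in drones (SD, 2 libraries each; exact permutation test over all 15 ways to split the 6 libraries into 3 pairs, p = 0.133, adjusted p = 0.133).

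As a share of all peaks of the library, unplaced peaks made up 2.60% and 2.52% in queens, with 1.45% and 1.31% in workers and 1.49% and 1.61% in drones. The queen share was again above all other libraries, and every drone library was above every worker library. The means were 2.56 ± 0.0574% in queens, with 1.38 ± 0.0975% in workers and 1.55 ± 0.0833% in drones (SD, 2 libraries each). The exact permutation test gave p = 0.0667, the smallest that 15 partitions allow, and an adjusted p of 0.08 over the 6 partition tests, so that the 0.05 threshold could not be reached. Measured as covered sequence, unplaced peaks spanned 163 and 138 kb in queens, with 124 and 119 kb in workers and 135 and 118 kb in drones. Of all bases under peaks these were 3.08% and 2.87% for queens, 1.99% and 1.76% for workers and 1.95% and 2.10% for drones. At least 1 peak was found on 127 and 119 scaffolds in queens, on 100 and 99 in workers and on 108 and 110 in drones.

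**Figure D1:**
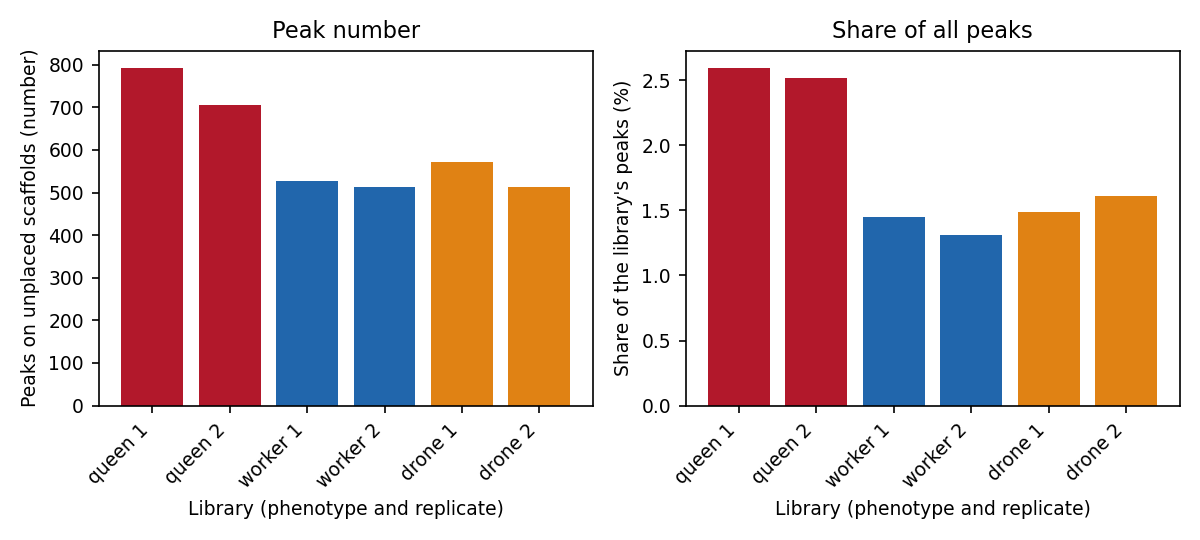
Peaks on unplaced scaffolds as a number (left panel) and as a percentage of all peaks of the library (right panel), 1 bar per library, with queens in red, workers in blue and drones in orange. The queen bars, 793 and 705 peaks or 2.60% and 2.52%, stand above the bars of the other 4 libraries in both panels.

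The calling patterns of the sites showed where the queen excess lay. A site called in both queen libraries and in none of the other 4, termed queen only, was found 107 times among the members (9.95%), against 358 times among the 59043 placed sites (0.606%). Over all sites 0.773% were queen only, and unplaced scaffolds, with 1.79% of the sites, held 23.0% of all 465 queen-only sites. Worker-only sites numbered 10 (0.930%, against 3.56% of placed sites and 3.51% of all sites), and drone-only sites 34 (3.16%, against 4.03% of placed sites and 4.02% of all sites). Relative to all sites, the queen-only share of the members was raised, the worker-only share was lowered and the drone-only share was near the background. Sites on 1 scaffold are not independent of each other, and these shares are given as counts without a test.

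Leaving out a library changed these counts. By construction, a phenotype with 1 library left then needs a call in that library alone, and a site of another phenotype has to be missing from 1 library fewer. There were 194 queen-only sites without queen replicate 1 and 268 without queen replicate 2. For workers the count was 36 without worker replicate 1, 33 without worker replicate 2, 18 without queen replicate 1, 16 without queen replicate 2 and 18 without drone replicate 1. For drones it was 63 without drone replicate 1 and 92 without drone replicate 2. Without any 1 of the 6 libraries, queen-only members remained between 115 and 268 in number, worker-only members between 14 and 36 and drone-only members between 34 and 92.

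In the pairwise comparisons, 145 members were private to queens against workers (13.5%, with 1.37% of all sites), and 37 were private to workers against queens (3.44%, with 7.47% of all sites). Between workers and drones, 50 members were private to workers (4.65%, with 7.49% of all sites) and 56 to drones (5.21%, with 5.18% of all sites). Between drones and queens, 58 members were private to drones (5.40%, with 8.49% of all sites) and 155 to queens (14.4%, with 3.61% of all sites). The 2 comparisons that include queens share the queen libraries. In both, the share of members private to queens was above that of all sites, whereas in the worker and drone comparison the drone share was near the background and the worker share below it.

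Sites called in all 4 libraries of 2 phenotypes and in neither library of the remaining one were rare. Queens and workers without drones shared 27 such members (2.51%, with 1.96% over all sites), workers and drones without queens 15 (1.40%, with 2.09%) and queens and drones without workers 15 (1.40%, with 0.298%). The last pattern was the one most raised among members, at 1.40% against 0.278% of placed sites.

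Wide and narrow sharing differed as well. All 6 libraries called 248 members (23.1%, against 27.5% of placed sites and 27.4% of all sites), and 373 members were called in 1 library only (34.7%, against 30.0% of placed sites and 30.1% of all sites). Of these 373, 160 belonged to queen replicate 1 and 81 to queen replicate 2, 23 and 25 to the worker libraries, and 57 and 27 to the drone libraries. The queen libraries supplied 241 of the 373 (64.6%), against 3394 of the 18076 single-library sites over all sequences (18.8%). Recovery in the other replicate was in a like range on both kinds of sequence: in queens 71.2% and 82.4% of unplaced peaks lay at a site that the other replicate also called, against 74.3% and 81.1% of placed peaks. The shares were 82.8% and 85.7% against 81.0% and 75.1% in workers, and 76.4% and 86.2% against 71.3% and 86.2% in drones.

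**Figure D2:**
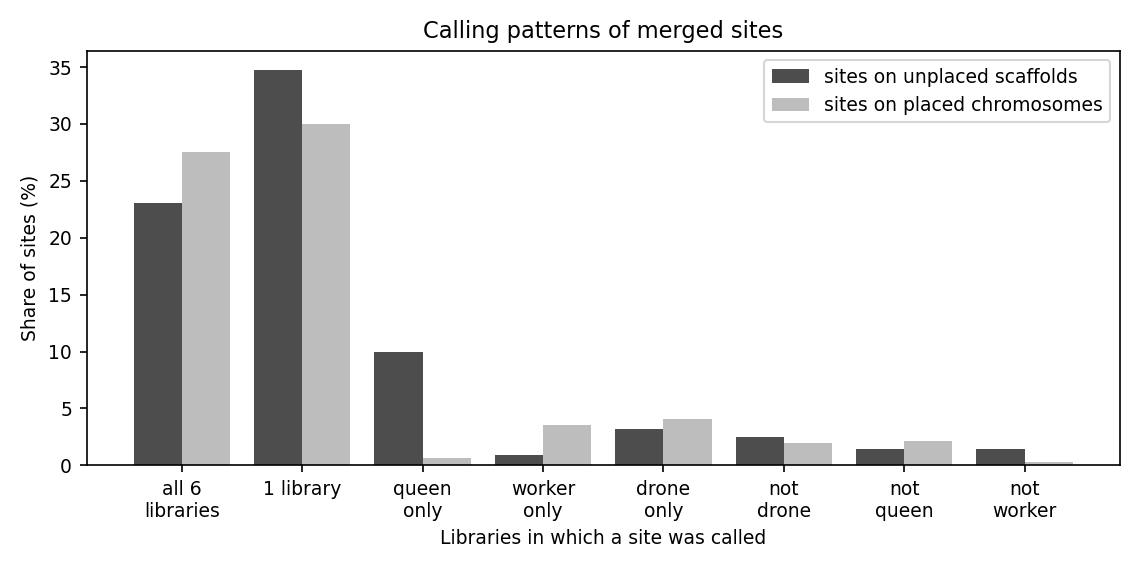
Share of merged sites (vertical axis, %) with each calling pattern, for sites on unplaced scaffolds (dark bars, 1075 sites) and on placed chromosomes (light bars, 59043 sites). The patterns are sites called in all 6 libraries, in 1 library, in both libraries of 1 phenotype and no other, and in all 4 libraries of the phenotypes other than the one named after "not". The bars differ most for queen-only sites, at 9.95% of unplaced and 0.606% of placed sites.

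Members were not spread evenly. The scaffolds held between 1 and 45 sites each with a median of 6, 12 scaffolds held a single site, and the 8 scaffolds with the most sites together held 249 (23.2%). Counting each sequence up to the last base called on it, unplaced scaffolds spanned 3243 kb with 3.31 sites per 10 kb, and placed chromosomes 220.7 Mb with 2.67 sites per 10 kb. Sequence past the last called base and scaffolds without a site were left out. This raises the density on short scaffolds most, so the unplaced value is an upper limit and the densities are not strictly comparable. Merged sites had a median width of 139 bp on unplaced scaffolds and 151 bp on placed chromosomes. Peaks were present in all 6 libraries on 90 of the 131 scaffolds.

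Scaffold by scaffold, queens stood above all others on part of the unplaced scaffolds and below them on all chromosomes. Most scaffolds showed neither order. Both queen libraries had more peaks than all 4 other libraries on 33 of 131 scaffolds and on 0 of 16 chromosomes (22.4% of all 147 sequences), and fewer on 1 scaffold and on 16 of 16 chromosomes (11.6%). Workers were above all others on 5 scaffolds (4.76% of all sequences) and below on 14 (9.52%), and drones were above on 4 (2.72%) and below on 11 (7.48%). On 7 scaffolds (5.34% of the 131, and 0 of 16 chromosomes) both queen libraries and no other library had peaks. Both drone libraries and no other had peaks on 1 scaffold (0.763%), and both worker libraries and no other on 0. The 7 were NW_020555790.1, NW_020555797.1, NW_020555800.1, NW_020555871.1, NW_020555915.1, NW_020555919.1 and NW_020555935.1, and the drone scaffold was NW_020555917.1. On NW_020555790.1, NW_020555797.1 and NW_020555871.1 each queen library had 1 peak, at a place that the other did not call. These scaffolds held 0 queen-only sites.

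Of these, NW_020555800.1 had the most queen peaks, 29 and 23 in replicates 1 and 2, with 0 peaks in the 2 worker and 2 drone libraries. The peaks merged into 32 sites between bases 2247 and 33822 of the scaffold in assembly Amel HAv3.1, and 20 of the 32 were called in both queen libraries. Their summits carried 10 to 37 fragments in queen replicate 1 and 10 to 29 in queen replicate 2, at fold enrichments of 3.70 to 10.5 (median 5.41) and 3.58 to 9.67 (median 6.15). They were therefore of ordinary strength, with a median at the 47.2 and 59.1 percentile of −log10 q in their own lists. The local background was 1.72 and 1.70 times the genome-wide one. The gene table names no gene on this scaffold, although 71 of its genes have no sequence name. Since the lists hold peaks only, 0 peaks in workers and drones says that no stretch passed the threshold there, and it does not show that no fragment was sequenced.

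The remaining queen-only sites were distributed over many scaffolds: the 107 sites lay on 46 scaffolds, and 61 of them on the 10 scaffolds that held at least 3. Without NW_020555800.1, 87 queen-only sites were left, which was 8.34% of the members elsewhere. After it came NW_020555861.1 with 8 queen-only sites. This scaffold had 34 and 24 peaks in queens, with 11 and 9 in workers and 14 and 7 in drones. NW_020555864.1, with 5 queen-only sites, had 24 and 15 peaks in queens, with 6 and 8 in workers and 11 and 8 in drones. NW_020555869.1, with 3, had 18 and 16 in queens, with 5 and 5 in workers and 7 and 7 in drones. On each of the 3 the queen libraries stood above all others with no overlap. Every queen-only site adds a peak to both queen libraries alone, so this order was favoured on them. NW_020555876.1, also with 5 queen-only sites, did not show it and is described below.

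Smaller scaffolds were named only because they held at least 3 queen-only sites, so a queen-high order on them was favoured by that choice. They were NW_020555906.1, NW_020555893.1, NW_020555915.1 and NW_020555817.1. NW_020555906.1 had 7 and 6 peaks in queens, with 1 and 0 in workers and 0 and 0 in drones, and 5 of its 7 sites were queen only. NW_020555893.1 had 8 and 5 peaks in queens, with 1 and 0 in workers and 0 and 1 in drones, and 5 of its 9 sites were queen only. NW_020555915.1 had 4 and 7 peaks in queens and 0 in the other 4 libraries, with 4 of 7 sites queen only. The group was completed by NW_020555817.1, with 8 and 8 peaks in queens against 3 and 3 in workers and 4 and 4 in drones. NW_020555863.1 was named for its 32 sites instead. It had 26 and 23 peaks in queens against 15 and 15 in workers and 19 and 17 in drones. On both NW_020555817.1 and NW_020555863.1, all queen values exceeded all others, and each held 3 queen-only sites.

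Not every scaffold with many sites favoured queens. NW_020555876.1 had 11 and 12 peaks in queens, with 4 and 2 in workers and 12 and 10 in drones, with 5 queen-only, 0 worker-only and 4 drone-only sites, so that workers stood below all others. NW_020555859.1, with 45 sites the richest of all, had 30 and 26 peaks in queens, with 28 and 25 in workers and 39 and 32 in drones. Drones were above all females on it. It held 16 sites called in all 6 libraries and 2 drone-only sites, and its peaks reached base 467121, the furthest on any unplaced scaffold. NW_020555881.1 had 18 and 15 peaks in queens, with 21 and 18 in workers and 25 and 18 in drones, and these ranges met at 18.

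**Figure D3:**
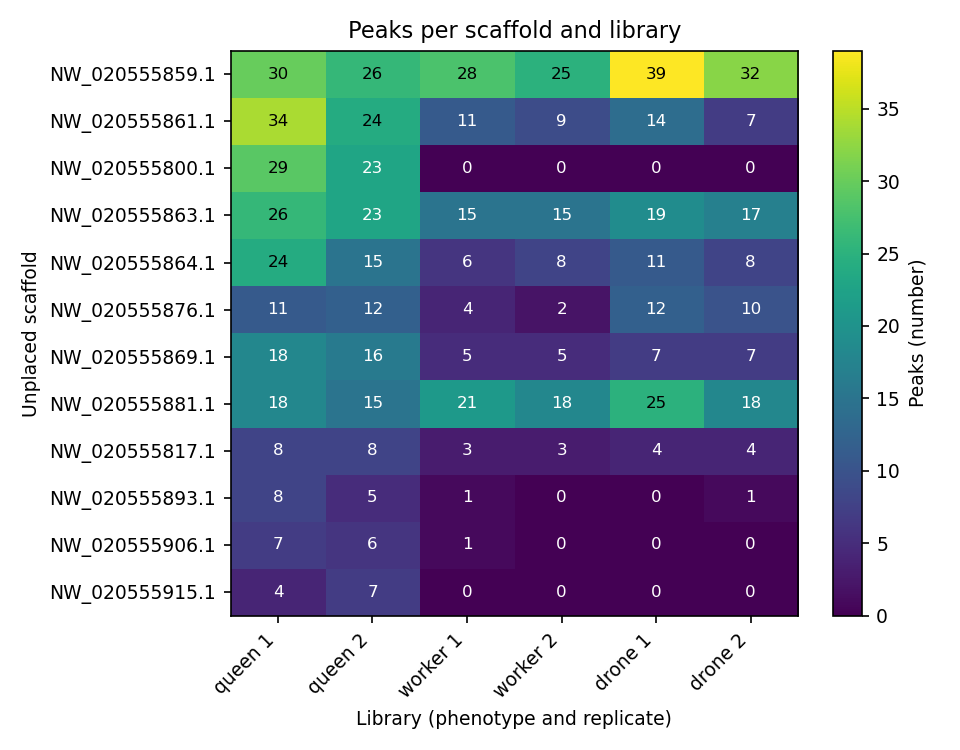
Number of peaks (colour and printed value) on the 12 scaffolds named by rule (rows) in each of the 6 libraries (columns). On 9 of the 12 rows both queen columns exceed the 4 others, and on NW_020555800.1 and NW_020555915.1 the worker and drone columns are 0. Rows named for their queen-only sites were favoured to show this order.

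Peaks called in 1 phenotype alone also differed in rank from their placed counterparts. Queen-only members had a median −log10 q at the 44.4 and 36.3 percentile of the queen lists, against 26.1 and 25.0 for placed queen-only sites, and a local background of 1.95 and 1.89 times the genome-wide one, against 1.29 and 1.28. Drone-only members lay at the 49.8 and 38.4 percentile of the drone lists, against 31.6 and 26.9 for placed drone-only sites, with a background of 2.53 and 2.62 times the genome-wide one, against 1.31 and 1.28. Worker-only members lay at the 29.2 and 33.0 percentile of the worker lists, against 27.5 and 27.7 for placed worker-only sites. Their background was 1.59 and 1.40 times the genome-wide one, against 1.26 and 1.26. In all 3 phenotypes, sites on unplaced scaffolds thus had the higher median rank and the higher local background in both replicates, with the narrowest gap in rank for workers. All of them ranked below the members that all 6 libraries called, whose median lay at the 72.9 to 76.0 percentile.

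The 3 best ranked queen-only sites all lay on NW_020555906.1. Bases 5607 to 5771 had a fold enrichment of 11.2 and 9.46 in the queen libraries, with 50 and 33 fragments at the summit. Bases 9213 to 9310 had a fold of 10.6 and 9.72, and bases 2932 to 3098 one of 10.1 and 11.9. These were moderate peaks at a background of 1.56 to 2.52 times the genome-wide one.

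Drone-only sites on unplaced scaffolds included far stronger single peaks. The best ranked, bases 313916 to 314088 of NW_020555859.1, had a fold enrichment of 23.1 and 26.0 in the drone libraries, from 55 and 53 fragments. Bases 23781 to 23884 of NW_020555874.1 had a fold of 21.5 and 23.6 from 51 and 48 fragments, and bases 2373 to 2476 of NW_020555917.1 one of 20.7 and 22.6 from 49 and 46 fragments. At all 3 the local background equalled the genome-wide one, and neither queen nor worker libraries had a peak. The 3 best worker-only sites were weaker, at a fold of 8.88 and 12 in the worker libraries for bases 793 to 884 of NW_020555925.1, 4.81 and 5.62 for bases 1285 to 1388 of NW_020555941.1 and 7.47 and 8.01 for bases 28490 to 28605 of NW_020555867.1.

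At the 248 members that all 6 libraries called, presence is equal by construction and the libraries can be compared by height. The median pileup at the summit, in multiples of the genome-wide background of the library, was 28.6 and 30.3 at unplaced against 17 and 17.8 at placed shared sites in queens. In workers it was 36.7 and 35.4 against 24.4 and 25.9, and in drones 27.5 and 27.9 against 21.8 and 21.4. Unplaced shared sites were thus higher than placed ones in 6 of 6 libraries, by a ratio of 1.68 and 1.70 in queens, with 1.5 and 1.37 in workers and 1.26 and 1.30 in drones. The queen ratios exceeded all others and the drone ratios were below all others.

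On the log2 scale this ratio averaged 0.76 ± 0.015 in queens, with 0.52 ± 0.092 in workers and 0.36 ± 0.037 in drones (SD, 2 libraries each; exact permutation test over 15 partitions, p = 0.0667, the smallest possible, adjusted p = 0.08). The local background at the same sites, again unplaced over placed, was 2.07 and 2.02 times in queens, with 1.52 and 1.47 times in workers and 1.53 and 1.70 times in drones. Its log2 mean was 1.03 ± 0.022 in queens, with 0.58 ± 0.038 in workers and 0.69 ± 0.11 in drones (SD, 2 libraries each; exact permutation test, p = 0.0667, adjusted p = 0.08). Queens were highest in both ratios. The rise in background was larger than that in summit height in every library, and the median fold enrichment of shared sites was lower on unplaced scaffolds in all 6: 6.72 and 7.01 against 7.17 and 7.19 in queens, with 7.75 and 7.98 against 8.54 and 9.07 in workers, and 7.49 and 7.23 against 8.67 and 8.02 in drones.

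**Figure D4:**
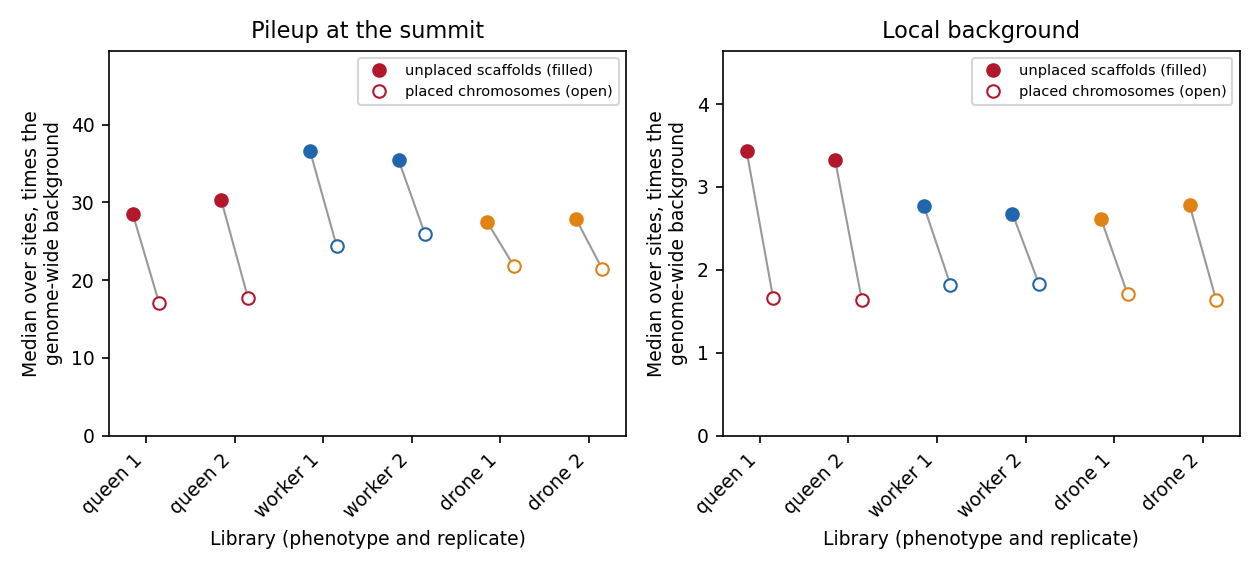
Median summit pileup (left panel) and median local background (right panel) at sites called in all 6 libraries, both in multiples of the genome-wide background of the library. Filled points are the 248 unplaced sites and open points the 16239 placed sites, joined within each library. The filled point is the higher one in every library, and the background ratio is widest in queens, at 2.07 and 2.02.

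Site by site, with each summit scaled to the placed median of its library, both queen libraries were above all 4 others at 97 of the 248 shared members (39.1%, against 11.6% of placed shared sites and 12% of all shared sites) and below them at 11 (4.44%, with 11.9% of all shared sites). Workers were above all others at 7 (2.82%, with 10.5%) and below at 50 (20.2%, with 9.99%). Drones were above at 43 (17.3%, with 17%) and below at 86 (34.7%, with 16.7%). The 97 sites lay on 50 scaffolds, and the 86 on 43. On this scale the queen order was also seen at sites where all libraries had a peak. The placed median behind this scale was lowest in queens, at 17 and 17.8 times the genome-wide background, against 21.4 to 25.9 elsewhere. Over the genome-wide background alone, median member summits were 36.7 and 35.4 in workers, 28.6 and 30.3 in queens and 27.5 and 27.9 in drones. Workers were thus highest without that scaling.

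In fold enrichment, the best ranked shared sites had orders of their own. At bases 12208 to 12411 of NW_020555791.1 the fold enrichment was 76.5 and 77.0 in drones, against 67.4 and 62.0 in queens and 48.9 and 41.1 in workers, with no overlap between phenotypes. At bases 2232 to 2539 of NW_020555929.1 it was 25.3 and 24.3 in drones, against 11.9 and 11.5 in queens and 14.0 and 14.8 in workers. Drones were highest at both sites.

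The other 3 of the 5 best ranked shared sites lay on NW_020555878.1. At its bases 45 to 410 the fold was 26.3 and 22.4 in drones, against 49.4 and 49.2 in queens and 55.8 and 54.1 in workers. At bases 24785 to 24966 it was 17.2 and 19.7 in drones, against 32.9 and 28.2 in queens and 34.8 and 32.2 in workers. Drones were below all females at these 2 sites, whereas at bases 18875 to 19233, the best ranked member of all, the values were close: 35.1 and 34.7 in drones, 31.8 and 32.8 in queens and 36.5 and 35.3 in workers. That site carried 418 to 706 fragments at its summit on a background of 9.49 to 16.0 times the genome-wide one. The gene table names no gene at any of the 5 sites.

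Against the placed chromosomes, unplaced peaks as a whole sat on a higher local background. Its median was 4.61 and 4.04 fragments on unplaced against 2.22 and 1.88 on placed sequence in queens, with 3.11 and 2.84 against 1.64 and 1.57 in workers, and 3.24 and 2.84 against 2.09 and 1.56 in drones. The log2 difference, unplaced minus placed, averaged 0.90 ± 0.17 (SD, n = 6 libraries) and was positive in 6 of 6 libraries (exact sign-flip permutation test, two-sided, p = 0.03125, the smallest that 6 libraries allow, adjusted p = 0.0625 over 4 tests). It was 1.08 ± 0.037 in queens, with 0.89 ± 0.053 in workers and 0.75 ± 0.16 in drones (SD, 2 libraries each).

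The fold enrichment lay the other way. Its median was 4.45 and 4.75 on unplaced against 5.64 and 5.81 on placed sequence in queens, with 5.33 and 5.85 against 6.05 and 6.14 in workers, and 5.45 and 5.30 against 5.78 and 6.01 in drones. The log2 difference averaged -0.19 ± 0.11 (SD, n = 6 libraries) and was negative in 6 of 6 libraries (exact sign-flip permutation test, p = 0.03125, adjusted p = 0.0625). With 4 tests, neither comparison passed 0.05 after adjustment.

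Neither rank within the list nor width passed the test. The median −log10 q percentile was higher on unplaced scaffolds in 5 of 6 libraries, by 4.13 ± 4.77 percentile points on average (SD, n = 6; exact sign-flip permutation test, p = 0.0938, adjusted p = 0.125). The exception was queen replicate 1, at 47.5 on unplaced against 50.0 on placed sequence. Unplaced peaks were -3.42 ± 6.02 bp apart from placed ones in median width (SD, n = 6; exact sign-flip permutation test, p = 0.25, adjusted p = 0.25). Medians were 130 and 127 bp against 139 and 137 bp in queens, with 142 and 137.5 bp against 136 and 137 bp in workers, and 140 and 139 bp against 145 and 142 bp in drones.

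The overlap of called bases between libraries was measured by the Jaccard index, the bases called in both libraries over those called in either, here on unplaced scaffolds only. Replicates shared 0.588 in queens, with 0.711 in workers and 0.673 in drones. Between phenotypes the index was 0.525 ± 0.0193 for queens and workers, 0.586 ± 0.00563 for workers and drones and 0.483 ± 0.00981 for drones and queens (SD over 4 pairs of libraries, which share libraries). The 2 phenotypes most alike on unplaced sequence were workers and drones, whereas on placed chromosomes the index was 0.487 ± 0.00898 for workers and drones and 0.522 ± 0.00991 for queens and workers. Replicates exceeded pairs of different phenotypes by 0.126 on unplaced and 0.0906 on placed sequence (unplaced: exact permutation test over 15 partitions, one-sided, p = 0.0667, adjusted p = 0.08). The queen pair was the least alike of the replicate pairs, and the highest value between phenotypes, 0.593, exceeded it.

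The RefSeq gene table of the same assembly places 35 genes by name on 22 unplaced scaffolds, comprising 15 protein-coding, 8 long non-coding RNA and 5 ribosomal RNA genes and 7 pseudogenes. A further 71 genes of the table, 37 of them protein coding and 9 ribosomal RNA genes, carry no sequence name and may lie on unplaced scaffolds, so that the counts of genes and of scaffolds with a gene are lower limits. Of the 22 scaffolds 19 held a site, whereas 112 scaffolds with sites had no gene named on them. Scaffolds with a named gene carried 121 members (11.3%) and 3 of the 107 queen-only sites. The others lay on scaffolds for which the table names no gene.

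A peak found in both replicates touched the gene or 200 bp on either side of it for 17 of the 35 genes in queens (48.6%, against 59.0% of 12255 placed genes and 59% of all genes), for 16 in workers (45.7%, against 65.4% and 65.3%) and for 16 in drones (45.7%, against 63.5% and 63.4%). It did so in all 3 phenotypes for 14 genes, and 15 genes had no peak in any library. None of the 12 scaffolds chosen by rule had a gene with a peak named on it, so the genes named below were chosen after their values were seen.

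All 5 ribosomal RNA genes with a scaffold name had peaks in all 3 phenotypes. Ribosomal RNA forms the core of the ribosome and is transcribed from its own repeated genes. LOC113219340, of 4023 bp, on NW_020555812.1 (bases 1432 to 5454), had 8 and 10 peaks in queens, with 8 and 7 in workers and 11 and 9 in drones. Here peaks were numerous but low, with a highest fold of 4.11 and 5.42 in queens, with 5.99 and 5.28 in workers and 3.51 and 4.33 in drones. Their local background was 9.09 and 9.17 times the genome-wide one in queens, with 12.9 and 10.7 times in workers and 7.73 and 8.32 times in drones, so that workers were highest and drones lowest without overlap.

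The same order was found at the other ribosomal RNA genes with a raised background. At LOC113219341 on NW_020555813.1 (bases 2142 to 4064) it was 8.07 and 7.55 times in queens, with 10.6 and 8.81 times in workers and 6.10 and 6.05 times in drones. At LOC113219355 on NW_020555851.1 (bases 2576 to 6604) it was 18.7 and 17.6 times in queens, with 27.1 and 23.8 times in workers and 14.6 and 15.6 times in drones. LOC113219354, at bases 8148 to 8302 of the same scaffold, lies beside the last of these.

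LOC113219356 on NW_020555853.1 (bases 5408 to 5560) differed from them. Its peaks lay at the genome-wide background, at 1.00 and 1.00 times in queens, with 1.06 and 1.00 times in workers and 1.00 and 1.00 times in drones, and reached a fold of 12.5 and 18.3 in queens, with 18.4 and 18.1 in workers and 14.5 and 11.1 in drones. At this gene the phenotypes overlapped.

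Over all peaks on the 4 scaffolds with one of these ribosomal RNA genes, 29 and 33 in queens, with 31 and 30 in workers and 28 and 29 in drones, the median log2 background over the genome-wide one was 3.19 ± 0.0093 in queens, with 3.55 ± 0.19 in workers and 3.00 ± 0.075 in drones (SD, 2 libraries each; exact permutation test, p = 0.0667, the smallest possible, adjusted p = 0.08). Set instead against the placed background at shared sites, it was 5.47 and 5.59 times in queens, with 7.07 and 5.83 times in workers and 4.53 and 5.10 times in drones, in the same order. Queens were in the middle in this background, and peak numbers lay between 28 and 33.

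**Figure D5:**
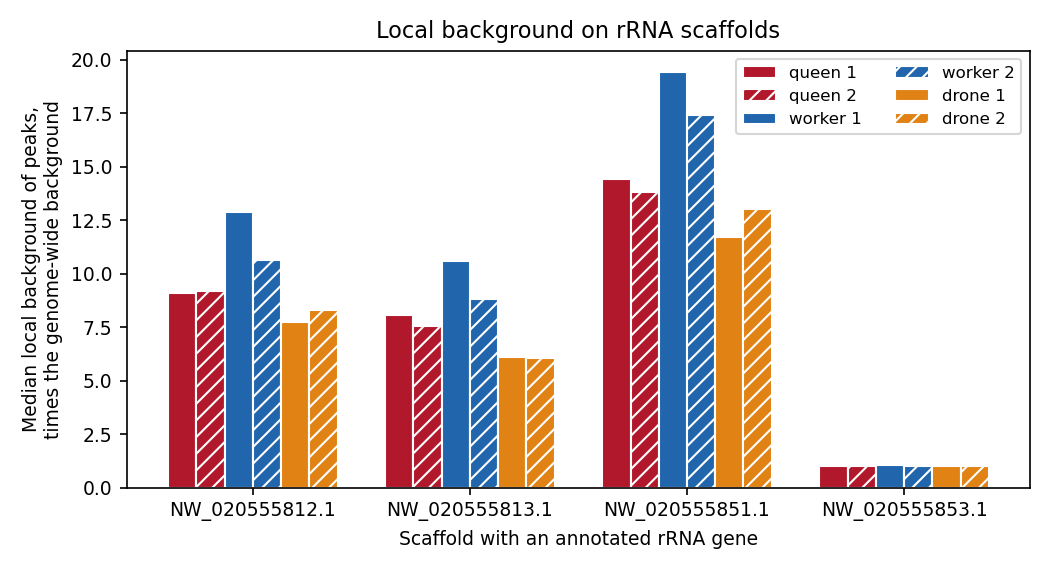
Median local background of the peaks on each of the 4 scaffolds with an annotated ribosomal RNA gene, in multiples of the genome-wide background of the library (vertical axis). Bars are libraries, with queens in red, workers in blue and drones in orange, and hatched bars are replicate 2. On NW_020555812.1, NW_020555813.1 and NW_020555851.1 both worker bars are highest and both drone bars lowest, while on NW_020555853.1 all bars are near 1.

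This order was not particular to the scaffolds with a ribosomal RNA gene. Of the 90 scaffolds with peaks in all 6 libraries, 12 had the median background of both worker libraries above and of both drone libraries below all others (13.2% of the 106 sequences with peaks in all libraries, including 2 of 16 chromosomes). Both queen libraries were above all 4 others in background on 36 of the 90 (38.7% of these sequences, including 5 of 16 chromosomes). Among 9 scaffolds with at least 5 peaks and a background of at least 5 times the genome-wide one in every library, a set chosen after its values were seen, 6 had the worker-highest and drone-lowest order, and 4 of the 6 had no ribosomal RNA gene named on them.

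These 4 were NW_020555880.1, NW_020555902.1, NW_020555904.1 and NW_020555938.1. On NW_020555902.1 the background was 13.2 and 11.5 times the genome-wide one in queens, with 22.3 and 19.3 times in workers and 9.32 and 9.62 times in drones. The highest background of the 9 was found on NW_020555881.1, at 17.8 and 17 times in queens, with 28.4 and 26.9 times in workers and 28.0 and 30.2 times in drones. On this scaffold queens were lowest, and the worker and drone values overlapped.

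Among protein-coding genes, NW_020555815.1 (20 sites, 12 of them in all 6 libraries) carried 5. LOC413736 (bases 15727 to 21538) had 2 peaks in each library, the higher with a fold of 16.3 and 15.9 in queens, with 21.7 and 21.6 in workers and 20.5 and 19.3 in drones. LOC411380 (bases 30315 to 31398) had 1 peak in each, with a fold of 11.6 and 11.5 in queens, with 15 and 17.7 in workers and 19.6 and 17.4 in drones. At both genes the queen folds were below all others, as was the median fold of queens over the shared members. The median fold at placed shared sites was lowest in queens too, at 7.17 and 7.19 against 8.02 to 9.07 in the other libraries. LOC551470 had a peak in every library except queen replicate 2, LOC551447 in every library except drone replicate 2, and LOC724790 in none. This scaffold as a whole had 18 and 16 peaks in queens, with 17 and 16 in workers and 18 and 15 in drones, so that the phenotypes overlapped.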

How the data were processed

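ATAC-seq was analysed from the 6 deposited peak lists, 2 each of queens, workers and drones, grouped by sample title. According to the study's methods and the submitters' processing notes, the authors demultiplexed reads with bcl2fastq 2.17, mapped them to the Amel HAv3.1 assembly with BWA 0.7.17, retained the fragments no longer than 100 bp, and called peaks with MACS2 per library at a genome size of 270000000 bp. Treatment of duplicate and multiply mapped reads is not given in the sources used here. Each deposited peak holds a fold enrichment (a ratio), the −log10 of its p-value and of its q-value, and a score the authors' caller derived from the latter. The lists hold no reads, so no count model was run. The authors' differential results were not used.

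Pileup and local background were solved from fold and p under MACS2's Poisson model, and a pileup counted as whole when it was off by under 5% of 1 step. On simulated data 99.9% of 20000 pileups were recovered, and 100% of 1000 planted sites kept their pattern. Peaks were merged at 1 bp of overlap. Libraries were compared by an exact permutation test over 15 partitions, and unplaced with placed sequence by an exact sign-flip test over 6 libraries (64 sign patterns), with Benjamini-Hochberg adjustment over 6 and 4 tests. Scaffolds named were the 8 with the most sites and those with at least 3 sites of 1 phenotype. Sites named were the best ranked by mean −log10 q rank, 5 among shared sites and 3 per phenotype. Genes came from RefSeq for the same assembly, and 71 without a sequence name, which may lie on unplaced scaffolds, were not used. The tested alternatives were equal list length, a −log10 q of at least 5, 12 fragments in every list, joining of summits within 100 bp, leaving out libraries or scaffolds, and the replicate number as a block. Members, lists and rules were chosen with earlier results of these data known. Python 3.11.15, numpy 2.4.6, pandas 2.3.3 and scipy 1.17.1 were used.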

Additional observations from a re-analysis of the deposited data

Results flagged for a closer look

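The difference in median peak width between unplaced and placed sequence had opposite signs in different phenotypes. Unplaced peaks were narrower in both queen libraries, by -9 and -10 bp, and in both drone libraries, by -5 and -3 bp, and wider in both worker libraries, by 6 and 0.5 bp. The means were -9.5 bp in queens and 3.25 bp in workers, a gap of -12.75 bp (queen minus worker), and 3.25 bp in workers and -4 bp in drones, a gap of 7.25 bp (worker minus drone). With every library of a phenotype on 1 side, the gaps are given as values and were not tested. Queens had the most peaks on unplaced scaffolds and the shortest lists, and the part of list length in these widths was not tested.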

How the results depend on the processing

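Queens kept more unplaced peaks and a higher share than workers or drones, and queen-only sites outnumbered worker-only and drone-only ones, under every alternative run for each. Workers had fewer peaks than drones as deposited (520 in workers, 542 in drones), but not without drone replicate 1 (520 in workers, 513 in drones). Queen-only sites numbered 86 at a −log10 q of at least 5, 118 at equal list length, 107 with 12 fragments in every list, 116 with summits joined and 87 without NW_020555800.1, an alternative chosen after seeing the data. At a −log10 q of at least 5, queens had 590.5 peaks on average, workers 447.5 and drones 453, and the worker share was 1.49%. At equal list length (28026 peaks), peaks were 429.5 in workers and 461 in drones, with shares of 1.53% and 1.64% and 5 worker-only sites. With 12 fragments, peaks were 460.5 in workers and 479 in drones, the share was 2.87% for queens, 1.64% for workers and 1.75% for drones, and 6 sites were worker only. Joining summits gave 21 worker-only sites. Without NW_020555859.1, the scaffold with the most sites, workers had 493.5 peaks and the shares were 2.46% in queens and 1.45% in drones. Without NW_020555800.1 the queen share was 2.47%. The cause of these shifts was not tested.

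Leaving out 1 library gave 115 to 268 queen-only, 14 to 36 worker-only and 34 to 92 drone-only sites, 931 to 1062 members, 255 to 267 sites in all libraries left, and 705 to 793 peaks for queens, 512 to 528 for workers and 513 to 571 for drones. The share was 2.52% to 2.60% for queens, 1.31% to 1.45% for workers and 1.49% to 1.61% for drones. The log2 background difference was 0.86 to 0.96 and the log2 fold difference -0.22 to -0.16, with an exact permutation p of 0.0625, the smallest that 5 libraries allow. The differences were 3.01 to 5.47 percentile points for rank and -5.3 to -2.1 bp for width, and 0.109 to 0.153 for the Jaccard index. With the replicate number as a block, the exact permutation p was 0.167, the smallest of 6 arrangements, for peaks, shares and the Jaccard index. Whether the replicate numbers pair the samples was not tested. Correlations of same-numbered deviations over scaffolds were -0.046 for queens and workers, 0.37 for queens and drones and 0.087 for workers and drones. With 2 libraries per phenotype the exact permutation tests between phenotypes could not reach 0.05, and peaks below each list's threshold were not seen.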
